A study of Mus musculus with 12 samples.

Results

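The 10 genes described here write, oxidise, excise or help to remove the methyl mark of cytosine: Tet1, Tet2, Tet3, Tdg, Dnmt1, Dnmt3a, Dnmt3b, Gadd45a, Gadd45b and Gadd45g. They were picked by name from the 23953 genes in the deposited RNA tables, and the rule that lists them uses no measured value, although earlier results of these data were known when it was written. Hippocampi of male C57BL/6 mice were taken by micropunch after restraint stress or from unstressed controls. Stress mice (6 animals) were restrained for 30 min in a conical vial, starting 2 h after lights-on, and left alone in a clean cage for 1 h before dissection. Control mice (5 animals) were naive and were taken when the restraint of the others began, so the groups also differ in time of day at dissection and in single housing, which cannot be told apart from the restraint. Both groups received brief isoflurane anesthesia. Each library pooled 2 mice, except that the labels give 1 mouse for 1 enrichment. The age tag reads postnatal day 28, while the treatment protocol gives 7 weeks. Genomic 5-hydroxymethylcytosine (5hmC) was captured chemically and sequenced in 3 stress and 3 control libraries, each with its own peak list. RNA from the same pools was deposited as 1 table per group, as length- and depth-scaled fragment levels (FPKM), so RNA differences have no replicate check and no test.

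DNA methyltransferases place a methyl group on cytosine: DNMT3A and DNMT3B set the mark on unmethylated DNA, and DNMT1 copies it to the new strand after replication. The TET enzymes oxidise methylcytosine to 5hmC and on to forms that the glycosylase TDG cuts out for base excision repair. The small stress-induced GADD45 proteins have been reported to take part in active demethylation, and Gadd45b is known as an activity-induced gene of hippocampal neurons. In neurons 5hmC is abundant and stable, and it lies mostly within gene bodies.

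RNA of Gadd45b and Gadd45g stood higher in the stress table, at 3.36 and 9.06 FPKM, against 0.978 and 4.88 FPKM in the control table. RNA of the 3 TET genes and of Dnmt3a differed by no more than 0.11 on the log2 scale between the tables. Of the 7 genes whose mean reached 1 FPKM, these 2 GADD45 genes were at least 1.5-fold higher in stress on the log2(FPKM + 1) scale, where 1.18% of 11071 genes were. Gadd45b reached that mean only through its stress value, so its place among the 7 depends on the difference being counted. With no minimum, the same 2 of the 10 genes passed, where 0.706% of all genes did. None of the 7 was 1.5-fold lower, where 0.894% of the same genes were. In 5hmC, peaks covered more of the Dnmt3a and Tet2 bodies in every stress library than in any control library. That was so for 7.49% of the 12602 genes with a peak. Divided by each library's mean over genes of at least 10 kb, the groups overlapped for both. With 3 against 3 libraries the exact permutation test gives no p below 0.1. Neither these 2 nor any other gene could thus pass 0.05, before or after adjustment over all genes. No peak of any library lay in the 3 GADD45 bodies. Peaks were found in 12602 of 23893 gene bodies, and in 10099 of the 13954 of at least 10 kb. The 3 GADD45 bodies are no longer than 2.31 kb, so their lack of peaks is not read as a trait of the family.

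Peak lists held 15195 to 31654 peaks in stress and 16327 to 27916 in control libraries, and they covered 16.6 to 38.1 Mb in stress and 16.7 to 30.1 Mb in control. Peaks covered 1.32%, 2.59% and 2.99% of gene bodies of at least 10 kb in stress libraries 1 to 3, against 1.17%, 2.14% and 1.12% in control libraries 1 to 3, as a mean over those genes. All 9 markers of hippocampal neurons passed 1 FPKM, with summed levels of 359 FPKM in stress and 339 in control. Choroid plexus markers moved with the groups: of 8, the 6 that passed 1 FPKM were all at least 1.5-fold lower in stress. Of these, Folr1 (0.389 FPKM in stress, 2.21 in control) and Clic6 (0.713 in stress, 3.17 in control) passed only through control. The 8 together summed to 65.5 FPKM in stress and 234 in control, of which Ttr alone made up 59.5 in stress and 217 in control. Oligodendrocyte markers (7 of 7 past 1 FPKM) summed to 1255 FPKM in stress and 1428 in control, astrocyte markers (6 of 6) to 315 in stress and 268 in control, and microglial markers (7 of 7) to 41.6 in stress and 35.9 in control. Endothelial markers (5 of 5) summed to 41.7 FPKM in stress and 36.3 in control, with Ly6c1 at 23.1 in stress and 13.6 in control and Cldn5 lower, at 5.77 in stress and 9.80 in control. Thalamic markers (5 of 6) summed to 30.1 FPKM in stress and 23.7 in control. No marker of these lists was listed at 0 in either table. The part of these differences in the RNA values below was not tested. In bulk tissue, fewer cells of a type and less RNA per cell cannot be told apart.

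Gadd45b had 3.36 FPKM in the stress table, against 0.978 FPKM in the control table, a ratio of 3.44. Its log2 difference with a pseudocount of 1 was 1.14, and 99.7% of the 11071 genes stood below it. Mean read coverage of its single 4-exon transcript was 31.0 per base in stress and 7.97 in control, so the control level rests on thin coverage. Unlike FPKM, coverage per base is not scaled for depth, here or below. Gadd45b had the largest RNA difference of the 10 genes. The deposited stress value of Gadd45b lay outside its own deposited interval of 2.54 to 3.29 FPKM, so these intervals were not used as errors.

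Gadd45g, the most abundant of the 10 genes in the stress table, had 9.06 FPKM there, against 4.88 FPKM in the control table. Its log2 difference was 0.77, above 99.5% of genes, and its coverage per base was 83.4 in stress and 39.7 in control. Both deposited values of Gadd45g lay outside their intervals, 6.82 to 8.40 FPKM in stress and 3.57 to 4.63 in control. Gadd45a, the family member best known as a p53 target after DNA damage, had 1.10 FPKM in stress and 0.624 FPKM in control. Its mean of 0.864 FPKM was under the minimum, and its log2 difference of 0.37 was under 1.5-fold, although the ratio without a pseudocount was 1.77. With a pseudocount of 0.1, Gadd45a (0.73) and Tdg (0.80) also passed 1.5-fold higher and Dnmt3b (−0.69) 1.5-fold lower, all 3 from levels averaging under 1 FPKM. An antisense gene, E230016M11Rik, overlaps 238 of its 1224 exon bases, and the labels do not say that reads were counted by strand. E230016M11Rik itself had 0.263 FPKM in stress and 0.177 in control. In both tables the family kept the order Gadd45g, Gadd45b, Gadd45a per unit of length.

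**Figure D1:**
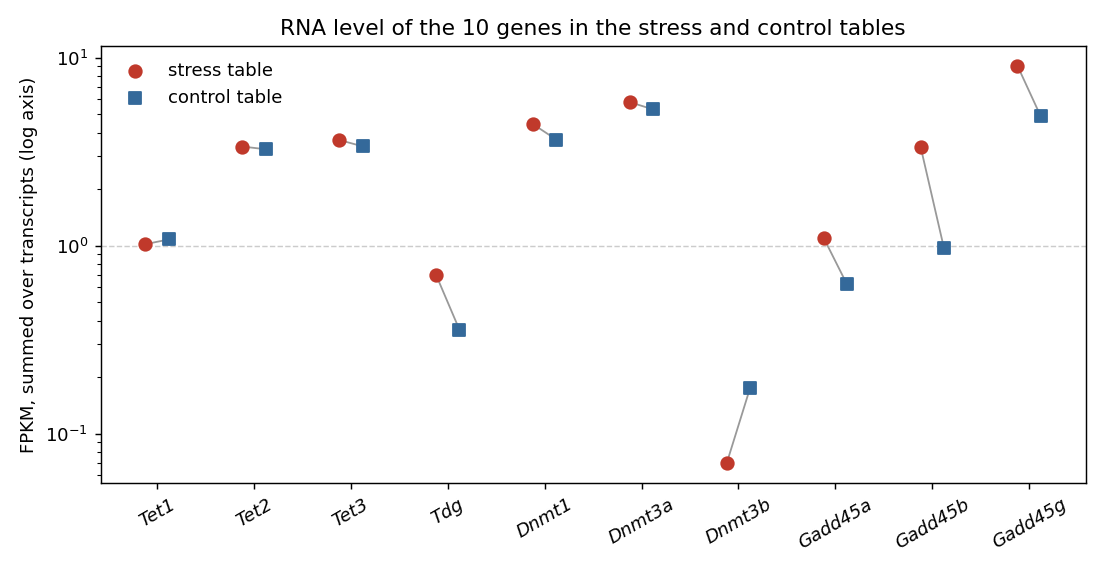
RNA level of the 10 genes in FPKM on a log axis, 1 point per deposited table, stress as red circles and control as blue squares joined by a line, with 1 FPKM dashed. Gadd45b is at 3.36 in stress and 0.978 in control and Gadd45g at 9.06 in stress and 4.88 in control, while the lines of Tet1, Tet2, Tet3 and Dnmt3a are close to level.

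Among 2593 genes whose mean FPKM lay within 1.5-fold of that of Gadd45b, 4 had a higher log2 difference. The 3 with the closest difference over the 2 tables were Hist1h4n at 1.19, Plekhf1 at 1.05 and Cdkn1a at 1.02. Cdkn1a encodes the cell cycle inhibitor p21 and had 3.19 FPKM in stress and 1.07 in control. Among 3003 genes near Gadd45g in level, 8 had a higher difference. The 3 closest were Fkbp5, Dio2 and Gm14391, each at 0.77. Fkbp5, a glucocorticoid-induced chaperone of the glucocorticoid receptor, had 10.2 FPKM in stress and 5.55 in control. Dio2, which makes active thyroid hormone, had 12.0 FPKM in stress and 6.68 in control.

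The sequences of the 250 bases before the start sites are shown for the 3 GADD45 genes. With a pseudocount of 1, Gadd45b and Gadd45g stood 1.5-fold higher together and Gadd45a did not. This contrast depends on the pseudocount: without it the ratios were 1.77 for Gadd45a and 1.86 for Gadd45g. They are RefSeq sequences on GRCm38.p6, written 5′ to 3′ on the strand of the gene: Gadd45a at chr6:67037408-67037657 on the minus strand, Gadd45b at chr10:80929841-80930090 and Gadd45g at chr13:51846425-51846674, both on the plus strand. Capitals mark the letters TATAAA, known as the TATA box, wherever they occur. They also mark the box with the letters CCAAT. The palindromic E-box, spelled CACGTG, is marked as well, and all motifs were searched on both strands.
Gadd45a: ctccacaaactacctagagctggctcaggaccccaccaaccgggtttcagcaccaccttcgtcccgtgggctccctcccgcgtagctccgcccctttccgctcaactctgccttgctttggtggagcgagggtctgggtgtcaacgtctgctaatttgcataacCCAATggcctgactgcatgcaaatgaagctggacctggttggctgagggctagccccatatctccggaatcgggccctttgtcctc
Gadd45b: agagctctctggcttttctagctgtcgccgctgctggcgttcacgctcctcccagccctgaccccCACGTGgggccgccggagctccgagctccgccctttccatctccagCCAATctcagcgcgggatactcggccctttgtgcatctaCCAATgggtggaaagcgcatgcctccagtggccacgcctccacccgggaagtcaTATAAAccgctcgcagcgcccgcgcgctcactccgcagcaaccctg
Gadd45g: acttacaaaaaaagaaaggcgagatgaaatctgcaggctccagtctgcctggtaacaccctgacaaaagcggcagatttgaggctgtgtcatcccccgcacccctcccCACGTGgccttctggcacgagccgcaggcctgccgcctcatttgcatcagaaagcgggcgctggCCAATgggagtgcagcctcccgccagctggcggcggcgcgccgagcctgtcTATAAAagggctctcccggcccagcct
TATAAA began 46 bases before the start of Gadd45b and 27 before that of Gadd45g, and 12.4% of all 32851 windows of this length hold it. CACGTG began 185 bases before the start of Gadd45b and 142 before that of Gadd45g, and 6.02% of windows hold it. Neither motif was in the Gadd45a window. CCAAT was in all 3, at 86 bases in Gadd45a, at 139 and 100 in Gadd45b and at 78 in Gadd45g, as in 33.8% of windows. TGACGTCA (cAMP response element, 1.55% of windows), TGANTCA (AP-1 site, 6.75%) and AGAACA (found in glucocorticoid response elements, 16.1%) had no match in the 3 windows, which says only that these letters are not there. Guanine and cytosine made up 59.2% of the Gadd45a, 65.2% of the Gadd45b and 62.0% of the Gadd45g window, against a median of 52.4% over all windows. They held 11, 22 and 16 CpG sites in the same order, against a median of 6. The motif matches are descriptions and were not tested against the RNA differences.

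The GADD45 bodies are short, at 2.31 kb for Gadd45a, 2.11 kb for Gadd45b and 1.80 kb for Gadd45g. The nearest recurrent peaks lay outside them, given here in mm9 coordinates. Past the 3′ end of Gadd45b, a region at chr10:80399463-80400612 had a peak in all 3 stress libraries and in control library 2. It began 4.51 kb beyond the last exon and lay 6.63 to 7.78 kb from the start. Its peaks ranged widely in the authors' score, from percentile 0.546 in stress library 1 to 92.6 at the highest, each within its own list. Upstream of Gadd45b, a region 1.55 to 2.31 kb before the start, at chr10:80390527-80391288, had peaks in stress libraries 2 and 3 and in no control library. Gadd45g had 1 region, at chr13:51945050-51946035, 1.21 kb past its end, with peaks in stress libraries 2 and 3 and control library 2. Gadd45a had a peak 0.612 kb upstream in stress library 1 and another past its end in control library 2. With bodies extended by 5 kb on each side, coverage differed by 6.30 percentage points for Gadd45b (exact permutation test, two-sided, p = 0.200), 3.13 for Gadd45g (p = 0.400) and −0.233 for Gadd45a, stress minus control. Control libraries 1 and 3 had no peak within 10 kb of any GADD45 body. Their lists were short, at 17186 and 16327 peaks. Stress library 1, with 15195 peaks, likewise had none within 10 kb of Gadd45g. Stress libraries 2 and 3 and control library 2 had 27797, 31654 and 27916 peaks.

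**Figure D2:**
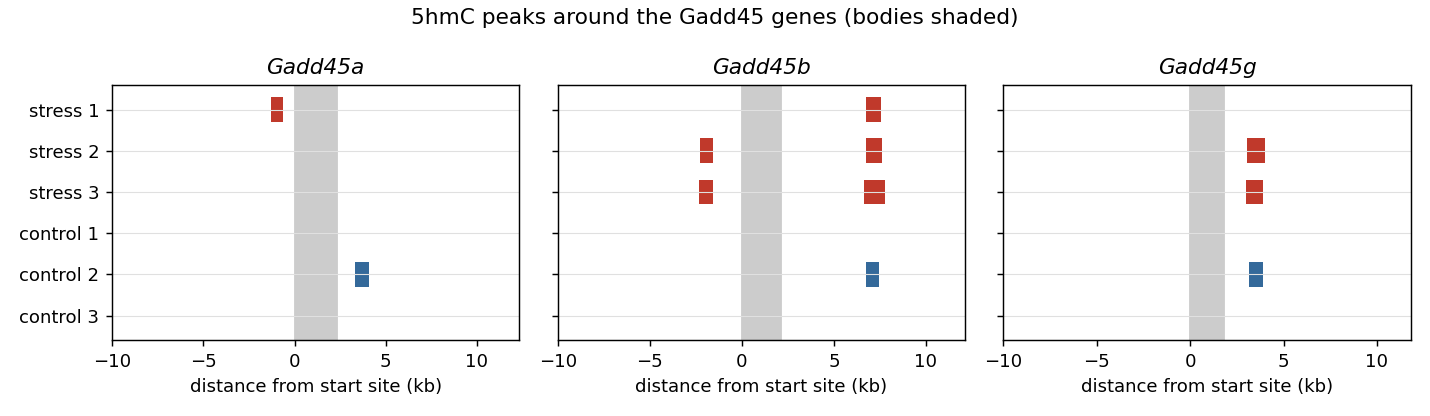
Peaks within 10 kb of the GADD45 bodies (shaded), 1 row per library with the 3 stress libraries (red) above the 3 control libraries (blue), by distance from the start site in kb. No bar falls in a body, and the region past Gadd45b is present in all 3 stress libraries and in control library 2.

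RNA of the TET genes was nearly the same in both tables. Tet3 had 3.65 FPKM in stress and 3.38 FPKM in control, a log2 difference of 0.09. Tet2 had 3.37 FPKM in stress and 3.26 in control, a difference of 0.04. Tet1, the least abundant of the 3, had 1.02 FPKM in stress and 1.08 in control, a difference of −0.05. The median over the 11071 genes that averaged 1 FPKM or more was 0.08, and relative to it the differences were 0.00 for Tet3, −0.05 for Tet2 and −0.13 for Tet1. The 2 transcripts of Tet1 did not keep the same share: the 12-exon form had 0.000163 FPKM in stress and 0.134 in control, which was 0.0161% of the gene in stress and 12.4% in control. The 11-exon form had 1.02 FPKM in stress and 0.947 in control. The transcripts are 14082 and 13986 bases long, and their split rests on the few reads that tell them apart.

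Tet2 was the TET gene whose 5hmC coverage did not overlap between the groups. Peaks covered 2.47%, 6.52% and 3.13% of its 80.7 kb body in stress libraries 1 to 3, against 0%, 1.48% and 1.29% in control libraries 1 to 3. The means were 4.04% ± 2.18 in stress and 0.922% ± 0.804 in control (SD, n = 3 each), and the exact two-sided permutation test gave p = 0.1, the smallest that 3 against 3 libraries allow. Adjusted over the 12602 genes with a peak, p was 1.00, as it was for every gene tested. Of the 7 genes with a peak in their body, 2 had higher coverage in every stress library, where 7.49% of the 12602 genes with a peak did, and none had lower coverage in all of them, where 1.04% did. Among the 10099 of these genes of at least 10 kb, the shares were 7.43% and 1.19%. The Tet2 difference of 3.12 points was 1.88 without stress library 2, and 1.14 when each list was reduced to its 15195 top-scoring peaks. Divided by each library's mean over long genes, the groups overlapped (exact permutation test, p = 0.200).

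Within Tet2, 1 of 6 regions recurred: chr3:133149832-133151657, inside exon 3, had peaks in stress libraries 2 and 3 and in control libraries 2 and 3. Its peaks were among the strongest of their lists, at score percentiles 88.8 to 99.0. The other 5 regions were each found in 1 stress library, 4 of them in introns. Outside exon 3, the stress peaks thus lay at different places in each library.

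Tet1 coverage was 0%, 1.50% and 1.52% in stress and 0%, 2.04% and 0% in control libraries 1 to 3. Means were 1.00% ± 0.870 in stress and 0.679% ± 1.18 in control (SD, n = 3 each; exact permutation test, p = 1.00), and the difference turned to −0.0137 points without control library 1 or 3. One recurrent Tet1 region, at chr10:62329599-62330898 in intron 1, had peaks in stress libraries 2 and 3 and control library 2. Tet3 coverage was 0%, 1.85% and 3.58% in stress and 0%, 6.86% and 1.70% in control. Means were 1.81% ± 1.79 in stress and 2.85% ± 3.57 in control (SD, n = 3 each; exact permutation test, p = 0.900). Control library 2 set the Tet3 sign through a single peak of 4182 bases over the last exon, the longest in the 10 genes. Without that library the difference was 0.958 points, higher in stress. The recurrent Tet3 region, chr6:83364836-83366355 in intron 2, had peaks in stress library 3 and control libraries 2 and 3.

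**Figure D3:**
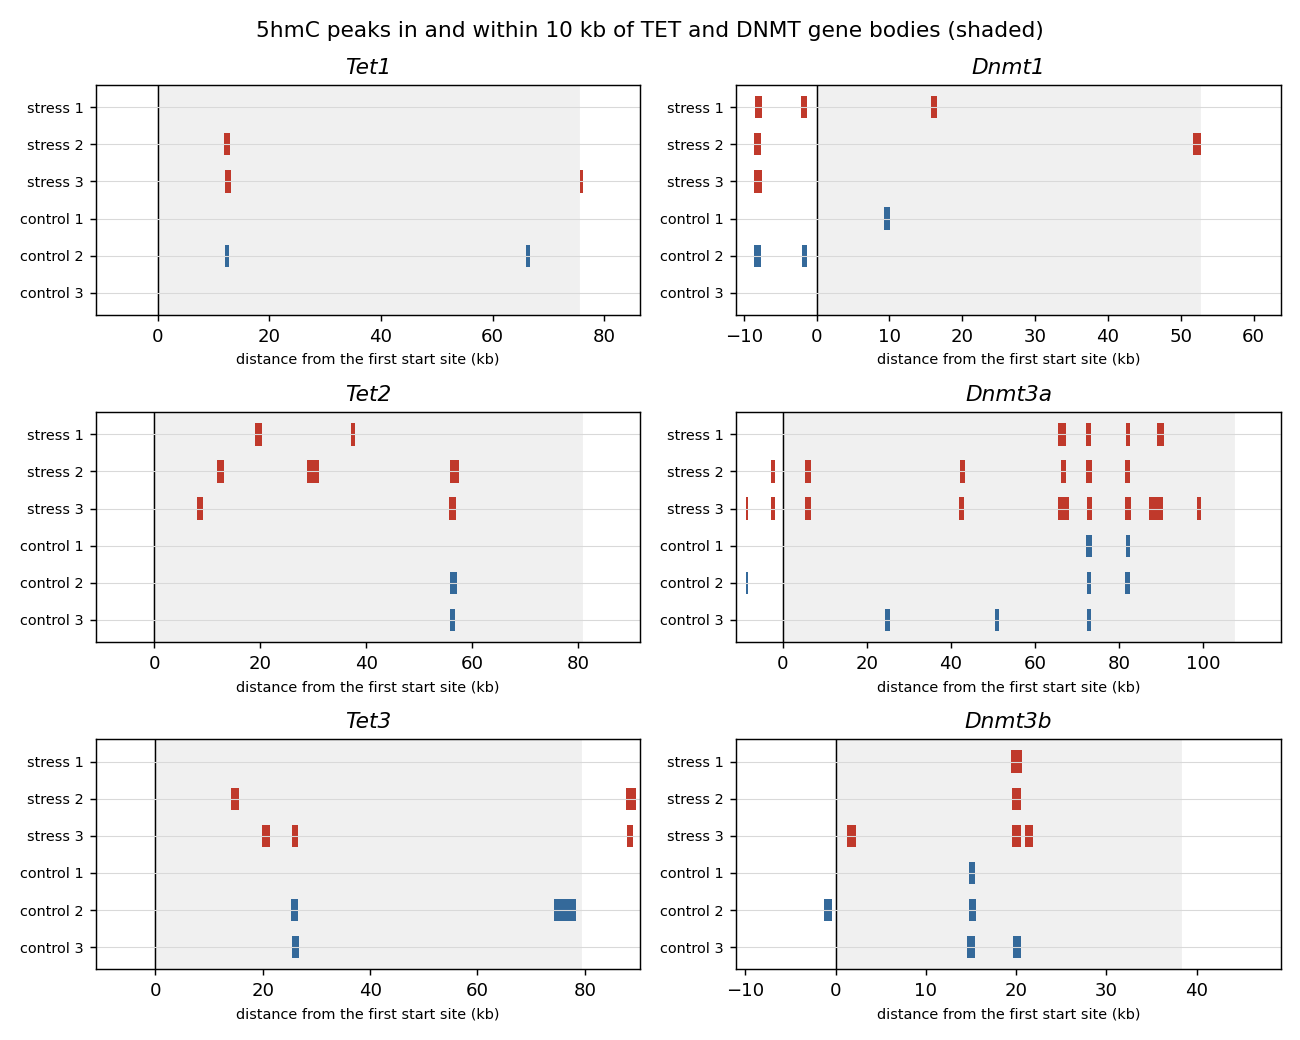
Peaks in the TET (left) and DNMT (right) gene bodies (shaded) and within 10 kb of them, 1 row per library with stress (red) above control (blue), by distance from the first start site in kb. Dnmt3a has a block of peaks at 65.5 to 68.1 kb in all 3 stress rows and no control row, and Dnmt3b has one at 14.6 to 15.5 kb in all 3 control rows and no stress row.

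Tdg RNA was low and its level is uncertain. It had 0.698 FPKM in stress and 0.358 FPKM in control, a ratio of 1.95, with a mean under 1 FPKM and a log2 difference of 0.32. The same-strand gene Gm9855 shares 2898 of the 3218 exon bases of Tdg (90.1%), so reads of the pair can be split between them. Gm9855 had 3.94 FPKM in stress and 4.13 in control. The sum of the pair was 4.64 FPKM in stress and 4.48 in control, a log2 difference of 0.04. Tdg took 15% of the sum in stress and 7.99% in control. The Tdg body had 1 region of peaks, at chr10:82096432-82098095 in intron 1, with peaks in stress library 3 and control libraries 1 and 2. Its coverage was 0%, 0% and 4.89% in stress and 8.06%, 4.50% and 0% in control (exact permutation test, n = 3 each, p = 0.7). The groups overlapped.

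Among the methyltransferases, Dnmt3a was the most abundant, with 5.80 FPKM in stress and 5.31 FPKM in control, a log2 difference of 0.11. All but a trace was assigned to a 23-exon transcript. The 18-exon transcript that starts 84764 bases further in had 0.000214 FPKM in stress and was listed at 0 in control. Dnmt1 had 4.43 FPKM in stress and 3.67 in control, a difference of 0.22. Its transcripts differed in this: the one with the first start site had 2.24 FPKM in stress and 2.31 in control, while the one starting 6909 bases further in had 1.94 in stress and 1.30 in control. Another Dnmt1 transcript, starting 7265 bases in, had 0.251 FPKM in stress and 0.0650 in control. A transcript of 5367 bases shares the 6909 start with that of 5370 bases, and was assigned 0.000193 FPKM in stress and 0.000265 in control. The most upstream start was assigned 50.5% of Dnmt1 in stress and 62.9% in control. This split rests on the reads that tell similar transcripts apart, with 1 table per group, and was not tested. Dnmt3b was near the limit of detection, with 0.0700 FPKM in stress and 0.175 in control, and coverage of its main transcript was 0.643 reads per base in stress and 1.42 in control. A single 20-exon transcript of the 9 listed held 99.8% of Dnmt3b in stress and 99.9% in control.

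Dnmt3a, the longest of the 10 genes, carried the most 5hmC regions, 9 of 29. Peaks covered 5.47%, 5.77% and 11.4% of its body of 107 kb in stress libraries 1 to 3, against 1.95%, 1.85% and 2.86% in control libraries 1 to 3. The lowest stress library thus stood above the highest control library. Means were 7.54% ± 3.32 in stress and 2.22% ± 0.555 in control (SD, n = 3 each; exact permutation test, p = 0.1, adjusted p = 1.00). The difference of 5.32 points was 3.40 without stress library 3. When each list was reduced to the same covered length it was 3.55 and the groups overlapped (exact permutation test, p = 0.200), and they also overlapped after division by each library's mean over long genes (p = 0.200).

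Dnmt3a held the one stress-only region of the 10 genes, a region with a peak in all 3 stress libraries and in no control library. Such regions were in the bodies of 2.44% of 23893 genes, and of 3.52% of genes of at least 10 kb, a length that 7 of the 10 exceed. It spans chr12:3872472-3875117, 65.5 to 68.1 kb from the start, over exons 5 and 6. Its peaks measured 1873, 1172 and 2646 bases in stress libraries 1 to 3, and their scores stood at percentiles 16, 53 and 87.5 of their lists. The call was lost when a library had to cover 50% of the region, when lists were cut to the same covered length, and when the higher-scoring 50% of each list was kept.

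A further Dnmt3a region, chr12:3879216-3880640 in intron 6, was the only one of the 29 in these genes with a peak in all 6 libraries. Its neighbour at chr12:3888522-3889779, also in intron 6, had peaks in all libraries but control 3. Between 87.2 and 90.9 kb, a region over exons 7 to 12 had peaks in stress libraries 1 and 3. The start site of the 18-exon transcript, at 84.8 kb, lies between these last 2 regions. Regions at 5.22 to 6.81 kb and 42.1 to 43.3 kb had peaks in stress libraries 2 and 3, and regions at 24.3 and 50.5 kb had one in control library 3 alone. A region at 98.5 kb, over exon 21, was in stress library 3 alone.

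Dnmt3b showed the reverse pattern at one place. At chr2:153489764-153490715, in intron 4, a region had peaks in all 3 control libraries and in no stress library. Control-only regions were in the bodies of 0.653% of 23893 genes, and of 1.08% of genes of at least 10 kb. Its peaks were weak in their own lists, at score percentiles 20.2 to 33.7, and the call was lost when lists were cut to the same number of peaks, to the same covered length, or to the higher-scoring 50%. About 4 kb further in, chr2:153494649-153495793 over exon 8 had peaks in all 3 stress libraries and in control library 3. Coverage of the 38.3 kb body was 2.99%, 2.55% and 7.44% in stress and 1.74%, 1.96% and 4.57% in control. Means were 4.33% ± 2.71 in stress and 2.75% ± 1.57 in control (SD, n = 3 each; exact permutation test, p = 0.5), and the groups overlapped. Relative to each library's mean over long genes the Dnmt3b difference turned negative, at −0.244.

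Dnmt1 had 3 regions in its body, each in 1 library. Its coverage was 1.48%, 1.92% and 0% in stress and 1.47%, 0% and 0% in control (exact permutation test, n = 3 each, p = 0.400). Outside Dnmt1, a region 1.30 kb upstream, at chr9:20765631-20766429, had peaks in stress library 1 and control library 2. Another, at chr9:20771804-20772970, 7.47 kb upstream and within S1pr2, had peaks in all 3 stress libraries and control library 2.

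**Figure D4:**
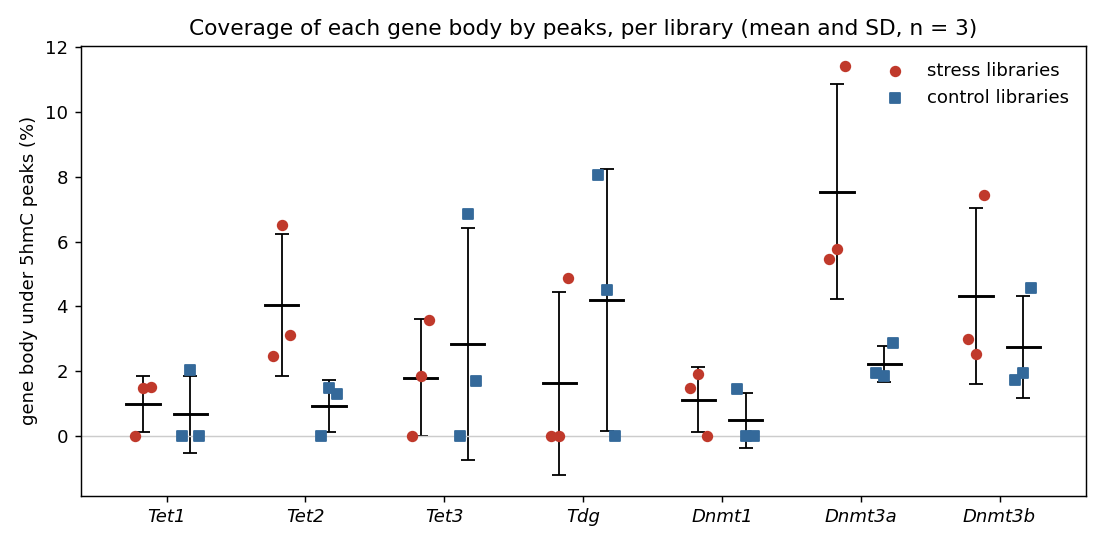
Percentage of each gene body under 5hmC peaks, 1 point per library, stress as red circles left of control as blue squares, with mean (line) and SD (bars, n = 3). The stress points of Dnmt3a (5.47% to 11.4%) and Tet2 (2.47% to 6.52%) lie above all their control points, and those of the other 5 genes overlap.

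Over the 7 genes with peaks, 5 had a higher mean coverage in stress and 2, Tet3 and Tdg, a higher one in control, and 68.7% of all genes with a peak had a higher mean in stress, so 5 of 7 is near that share. Their 29 regions were mostly found once: 17 (58.6%) were in a single library and 9 (31.0%) in 3 or more, beside 55.3% and 23.1% of the 43572 regions in all gene bodies. By family, 8 of 16 DNMT regions and 9 of 12 TET regions were in a single library. Of the 57 peaks in these bodies, 36 were in stress and 21 in control libraries, beside 45152 and 36294 in all gene bodies. Dnmt3a held more of the 57 than any other gene. Exons were touched by 17 of the 36 stress peaks (47.2%) and 5 of the 21 control peaks (23.8%). For peaks in all gene bodies the shares were 39.4% in stress and 32.0% in control. A region counts once for each peak in it, so these peaks are not independent, and the gap was not tested. None of the 57 came within 1 kb of a start site of its gene, where 6.77% of body peaks in stress and 5.31% in control did. Peaks outside a body are not in these counts. Such peaks lay 0.414 kb upstream of Dnmt3b in control library 2 and 0.612 kb upstream of Gadd45a in stress library 1. Peaks in these genes had a median length of 1215 bases in stress and 954 in control, with no median over all gene bodies to set beside them.

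Genes that work with these enzymes were looked at in the same way. Of 57 partner genes in 5 lists, 38 had a mean of at least 1 FPKM. One of the 38, Cdkn1a, was 1.5-fold higher in stress (1.18% of all genes at this level were) and none was 1.5-fold lower (0.894% were). A count of 1 is too small to set apart from these shares. Their median difference was 0.06, beside 0.08 over the 11071 genes at this level and 0.11 for the 7 genes above. None of the 57 had a stress-only region, where 2.44% of genes did, or a control-only region, where 0.653% did, so 0 is near the background. Of the 57, 40 had a peak in some library. Among all 23893 genes 12602 did, and among the 13954 of at least 10 kb 10099 did.

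Among TET regulators and readers of oxidised cytosine, 8 of 9 genes averaged 1 FPKM or more, with a median of 0.00. The highest was Uhrf2, a reader of 5hmC, with 8.99 FPKM in stress and 6.59 in control, a log2 difference of 0.40, followed by Thyn1 at 0.18. The lowest were Cxxc5, which binds unmethylated CpG and restrains TET2, at −0.19, and Wdr76, below 1 FPKM, at −0.13. DNMT partners and methyl donor enzymes had a median of −0.10 over 7 of 11 genes. Mat2a, which makes the methyl donor S-adenosylmethionine, had 31.9 FPKM in stress and 24.4 in control, a difference of 0.38. Mat2b, its regulatory subunit, and Ahcy, which clears the product of methylation, were both at −0.13. Below 1 FPKM, the chromatin remodeller Hells was at 0.28 and its partner Cdca7 at −0.51.

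Methyl-CpG binding proteins had a median of 0.10 over 9 of 10 genes. Mbd1 had 5.12 FPKM in stress and 3.79 in control, a difference of 0.35. Mbd3 was at −0.00 and Mbd4, below 1 FPKM, at −0.14. Base excision repair and deaminase genes had a median of −0.06 over 6 of 18 genes. The glycosylase Neil1, which can act beside TDG, had 1.28 FPKM in stress and 0.207 in control, a difference of 0.92, and its mean was under the minimum. Apobec3 at 0.52, and Apobec1 at −0.52 and Ung at −0.31, were also below 1 FPKM. GADD45 partners and targets had a median of 0.11 over 9 of 11 genes. Apart from Cdkn1a, the highest was Taf12 at 0.35. The lowest were Ccnb1, below 1 FPKM, at −0.20 and Gadd45gip1 at −0.16. Map3k4, the kinase that GADD45 proteins activate, had 6.85 FPKM in stress and 5.38 in control.

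**Figure D5:**
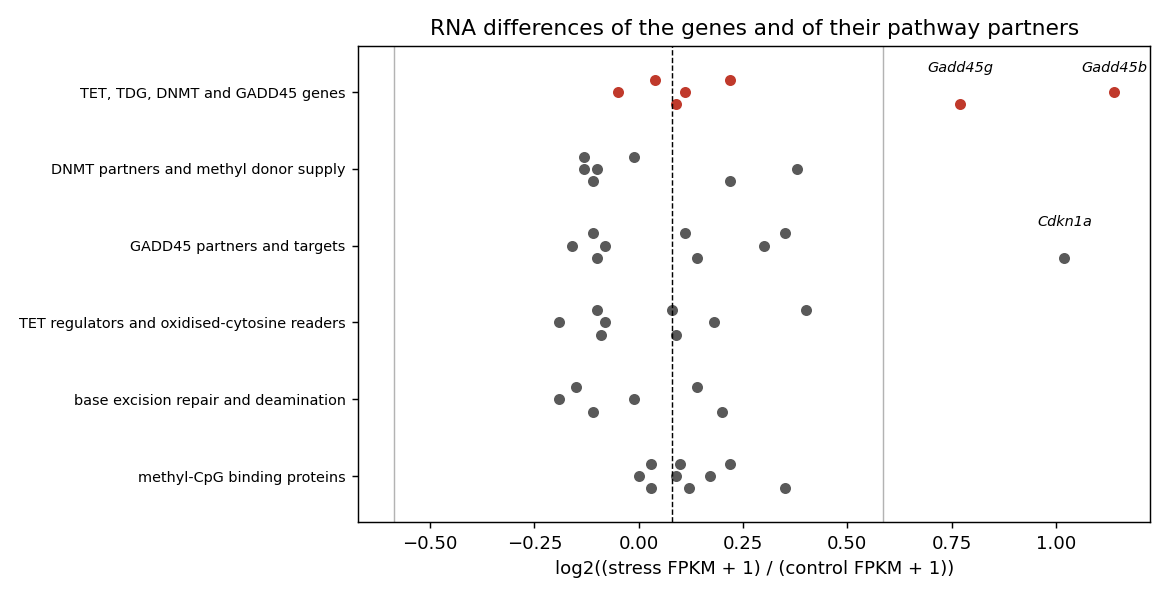
Log2((stress FPKM + 1)/(control FPKM + 1)) of genes that averaged 1 FPKM or more, 1 point per gene, with the TET, TDG, DNMT and GADD45 genes in red above 5 partner lists in grey. Grey lines mark 1.5-fold and the dashed line the median of the 11071 genes at this level, 0.08, and Gadd45b, Gadd45g and Cdkn1a are the points beyond the right line.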

How the data were processed

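Peak lists of 3 stress and 3 control 5hmC libraries and 1 RNA table per group were used. The authors deposited 1 score per peak, in peaks named as MACS names them. For 5hmC, the submitters' processing notes name Bowtie 0.12.9, the build mm9 and edgeR. The peak threshold and any input library are not given in the sources used here. All 6 lists began at a score of 50. Scores ranked peaks within a list only. RNA was processed with TopHat 1.0.12, Cufflinks 2.1.1 and Cuffdiff 2.1.1, per the submitters' processing notes, and the authors deposited FPKM and other values per RefSeq transcript. The way in which 3 libraries became 1 table was not stated in the sources used here. Read counts were not used here, so the number of reads behind the RNA tables and the 5hmC libraries is unknown. The median coverage per base and FPKM was 9.22 in stress and 8.14 in control. At equal FPKM, coverage per base was thus higher in the stress table.

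FPKM were summed per gene, and differences are log2((stress + 1)/(control + 1)), which understates the change of low genes. Peaks sharing at least 1 bp formed a region, and bodies, exons and starts came from the mm9 transcripts of the RNA tables. Coverage was tested by exact two-sided permutation of the 6 libraries (20 assignments, smallest p 0.1), with Benjamini-Hochberg adjustment over 12602 genes. These p-values measure the spread between libraries, in which differences of pool, library and peak list length are held together. Python 3.11.15, numpy 2.4.6, pandas 2.3.3, scipy 1.17.1 and matplotlib 3.10.9 were used. In simulated data, 200 of 200 planted stress-only regions were recovered, and 200 of 200 shifted genes among 12602 reached the smallest p, as did 9.84% of the unchanged genes. The shifts were several times the simulated normal noise, and the regions were planted in all 3 stress libraries away from real peaks. Recovery was thus nearly certain and checks only that the steps run as written. Real coverage differs from such noise and list lengths were unequal, so these rates do not carry over to it. In the real libraries 1075 of 12602 genes reached the smallest p.

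The members and lists were chosen with earlier results of these data known. The text names all 10 genes, partner genes past 1.5-fold or with a region in 1 group only, the 2 highest and 2 lowest of each partner list, and the 3 genes nearest in RNA difference to each member past 1.5-fold. Map3k4 and the genes overlapping Tdg and Gadd45a were named after their values were seen. One gene that the rule names is not reported here. Replicate numbers did not pair the libraries. Alternatives were other pseudocounts, filters, centring and isoforms, fewer or rescaled peaks, other overlap rules, extended bodies, a replicate block and leaving out each library. The sum of Tdg and Gm9855 was added after seeing the data. Promoter windows are RefSeq sequences on GRCm38.p6, of which all 10 genes had one, and no coordinate was carried between builds.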

Additional observations from a re-analysis of the deposited data

How the results depend on the processing

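With a pseudocount of 0.1, 4 of the 10 genes were at least 1.5-fold higher in stress and 1 was lower. Tdg (0.80), Gadd45a (0.73) and Dnmt3b (−0.69) then passed, none of which reached a mean of 1 FPKM. Of the 7 genes averaging 1 FPKM or more, only Gadd45b (1.68) and Gadd45g (0.88) passed. Among all genes at that level 3.03% were higher and 1.98% lower, shares that do not match a count over all 10. Gadd45b stayed between 1.06 and 1.68 and Gadd45g between 0.69 and 0.88 under the RNA alternatives run. The number of genes with a stress-only region was 0 with the same covered length and with 50% of a region required, and 1 to 2 when single libraries were left out, 2 without control library 3, when the Dnmt3b exon 8 region joined. With the higher-scoring 50% of each list it was 1, and that gene was Dnmt3b. The number with a control-only region was 0 with lists of equal length, with the higher-scoring 50% and with the same covered length, and 1 in each run without a library. The number with higher coverage in every stress library was 1 with the same covered length (Tet2; 5.08% of genes with a peak) and 2 to 3 when single libraries were left out (9.03% to 24.6%, the highest without stress library 1), and none had lower coverage in any of these. The number with a higher mean in stress ranged over 4 to 6 without single libraries, beside 58.5% to 76.0% of genes with a peak. Coverage differences that changed sign were Tet1 at −0.0137 points without control library 1 or 3, Tet3 at 0.958 without control library 2 (from −2.47 without control library 1), and Dnmt3b at −0.244 relative to the mean over long genes. Same-numbered libraries correlated at 0.08, 0.05 and −0.04 in their deviations from the group means over 10099 genes, so the numbers are not taken to pair the libraries. With a replicate block, 3 genes were higher in stress in all 3 pairs (13.7% of genes with a peak), where the smallest possible p is 0.25. Peak lists without read counts limit these comparisons: an absent peak is a peak not called, and list length differed within both groups.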
